A study of Mus musculus with 12 samples.

Results

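A set of 10 genes of the basement membrane were followed in mouse embryonic stem cells whose Bcat1 gene was labelled as knocked out. The set holds the laminin chains Lama1, Lama5, Lamb1 and Lamc1, the collagen IV chains Col4a1 and Col4a2, the nidogens Nid1 and Nid2, the perlecan gene Hspg2, and Sparc. They were picked by symbol, and all 10 were found among the 52535 gene entries of the count tables. The cells are E14, an established mouse embryonic stem cell line, grown with serum, leukaemia inhibitory factor and the 2i inhibitors. Bcat1 encodes the cytosolic branched-chain amino acid aminotransferase. Total RNA depleted of ribosomal RNA was sequenced from 2 libraries of Bcat1-KO clone 1, 2 of Bcat1-KO clone 2 and 2 of WT cells, all of the same line. Each knockout group is 1 clone, so a trait of a clone and a result of the knockout cannot be told apart within it. Nothing in the labels states that replicates were cultured separately, and the p-values thus reflect library-to-library spread that may be technical.

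A basement membrane is a thin sheet of matrix under epithelia. Laminins, each a trimer of an alpha, a beta and a gamma chain, polymerise on the cell surface and start the sheet. Collagen IV, a trimer of alpha chains, forms a crosslinked network that gives it strength. Nidogens and perlecan bridge the laminin and collagen layers. In the early embryo laminin is laid down between the epiblast and the primitive endoderm, and parietal endoderm makes large amounts of laminin and collagen IV.

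The libraries held 11976149 to 13923262 counts over genes, and 14946 genes passed the count filter, among them all 10 members. Replicates of each group differed beyond sampling noise and were kept as separate libraries. The chi-square per gene between replicates was 8.79 in clone 1 and 3.27 in clone 2, against 3.57 in WT. The clone contrasts used 1 estimate of the spread shared by the 3 groups, so their p-values do not reflect the noise of each group on its own. Bcat1 itself gave 617 and 662 CPM (gene counts scaled to the size of each library) in clone 1 and 583 and 579 CPM in clone 2, against 602 and 614 CPM in WT. Counts over the whole gene therefore did not check the knockout label, and the groups are called by their labels throughout.

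The strongest differences were in collagen IV, and they were seen in 1 of the 2 clones. Col4a1 and Col4a2 stand head to head on chromosome 8, so their promoters are shown first, with that of Lamb1, the other member that was clearly higher in clone 1 and level with WT in clone 2. In GRCm38, Col4a1 spans chr8:11198423-11312826 on the minus strand and Col4a2 spans chr8:11312805-11449287 on the plus strand, with 22 bases of their first exons in common. Each window runs from 250 bases before to 50 bases after the start of the gene in RefSeq (GRCm38.p6). The Col4a1 window is chr8:11312777-11313076 (minus strand), and the Col4a2 window is chr8:11312555-11312854 (plus strand). Capitals in these windows mark the 78 bases, chr8:11312777-11312854, that both contain. The Lamb1 window is chr12:31265043-31265342 (plus strand), and its capitals mark CCAAT and GGGCGG matches on either strand.
Col4a1: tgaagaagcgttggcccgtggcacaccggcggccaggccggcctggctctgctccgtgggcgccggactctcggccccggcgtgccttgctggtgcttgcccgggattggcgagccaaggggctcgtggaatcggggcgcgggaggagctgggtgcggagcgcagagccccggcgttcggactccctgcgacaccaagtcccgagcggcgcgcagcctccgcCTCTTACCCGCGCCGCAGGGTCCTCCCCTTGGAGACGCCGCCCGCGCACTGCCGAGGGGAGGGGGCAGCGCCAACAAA
Col4a2: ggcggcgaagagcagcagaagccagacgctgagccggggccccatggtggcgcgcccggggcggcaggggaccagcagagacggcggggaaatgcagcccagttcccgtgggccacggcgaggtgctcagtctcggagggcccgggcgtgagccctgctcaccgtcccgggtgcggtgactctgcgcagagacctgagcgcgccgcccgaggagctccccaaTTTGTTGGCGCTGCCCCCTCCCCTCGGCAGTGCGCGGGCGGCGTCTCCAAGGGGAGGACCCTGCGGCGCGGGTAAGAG
Lamb1: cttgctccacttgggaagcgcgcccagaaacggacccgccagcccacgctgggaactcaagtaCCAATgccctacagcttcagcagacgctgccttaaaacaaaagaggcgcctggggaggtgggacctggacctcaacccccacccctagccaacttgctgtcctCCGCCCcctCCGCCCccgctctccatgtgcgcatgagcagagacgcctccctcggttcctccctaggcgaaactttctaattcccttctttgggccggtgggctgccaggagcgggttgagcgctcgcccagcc

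RefSeq windows were matched for 7 of the 10 genes, and Lama1, Lamc1 and Nid2 were not analysed for sequence here. The GC box motif GGGCGG was found on either strand in 6 of the 7 windows and in 35.7% of 32851 mouse promoter windows of the same length. CCAAT was found in 4 of the 7 windows and in 37.4% of all windows. The motif AGATAA, which GATA factors bind, was in 0 of the 7 windows and in 11.2% of all windows. The stretch shared by Col4a1 and Col4a2 held 1 GGGCGG match and neither of the other motifs. These motifs do not overlap each other, and a match describes letters only.

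Collagen IV mRNA was several times higher in clone 1 and near the WT level in clone 2. Col4a1, which encodes the alpha-1 chain, had 27.1 and 29.6 CPM in clone 1 and 3.88 and 5.38 CPM in clone 2, against 4.86 and 5.32 CPM in WT. Both clone 1 libraries lay far above all 4 others, while the clone 2 and WT values overlapped. The rise in clone 1 was 5.56-fold (log2 fold change 2.48 ± 0.18 (SE), adjusted p = 7.33e-08), and clone 2 was at -0.13 ± 0.22 (adjusted p = 0.733) against WT, by the quasi-likelihood test of edgeR with p adjusted by Benjamini-Hochberg over all tested genes. Clone 2 against clone 1 gave -2.61 ± 0.18 (adjusted p = 9.91e-08). Raw counts of Col4a1 were 342 and 386 in clone 1 and 46 and 68 in clone 2, against 63 and 72 in WT.

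Col4a2, which encodes the alpha-2 chain, had 11.6 and 18.1 CPM in clone 1 and 4.31 and 4.35 CPM in clone 2, against 3.32 and 5.54 CPM in WT. The clone 1 libraries were again the highest, but they lay further apart than those of Col4a1. Col4a2 rose 3.34-fold in clone 1 (1.74 ± 0.26, adjusted p = 1.20e-04, edgeR) and was at -0.04 ± 0.29 in clone 2 against WT (adjusted p = 0.950). The difference of clone 2 from clone 1 was -1.78 ± 0.26 (adjusted p = 2.03e-04). In WT and clone 2, Col4a2 rested on 43 to 75 counts a library, which makes its small differences there imprecise. Per kilobase of exon, the ratio of Col4a1 to Col4a2 was 2.08 and 1.45 in clone 1 and 0.800 and 1.10 in clone 2, against 1.30 and 0.851 in WT. Both clone 1 ratios were above those of the other 4 libraries.

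**Figure D1:**
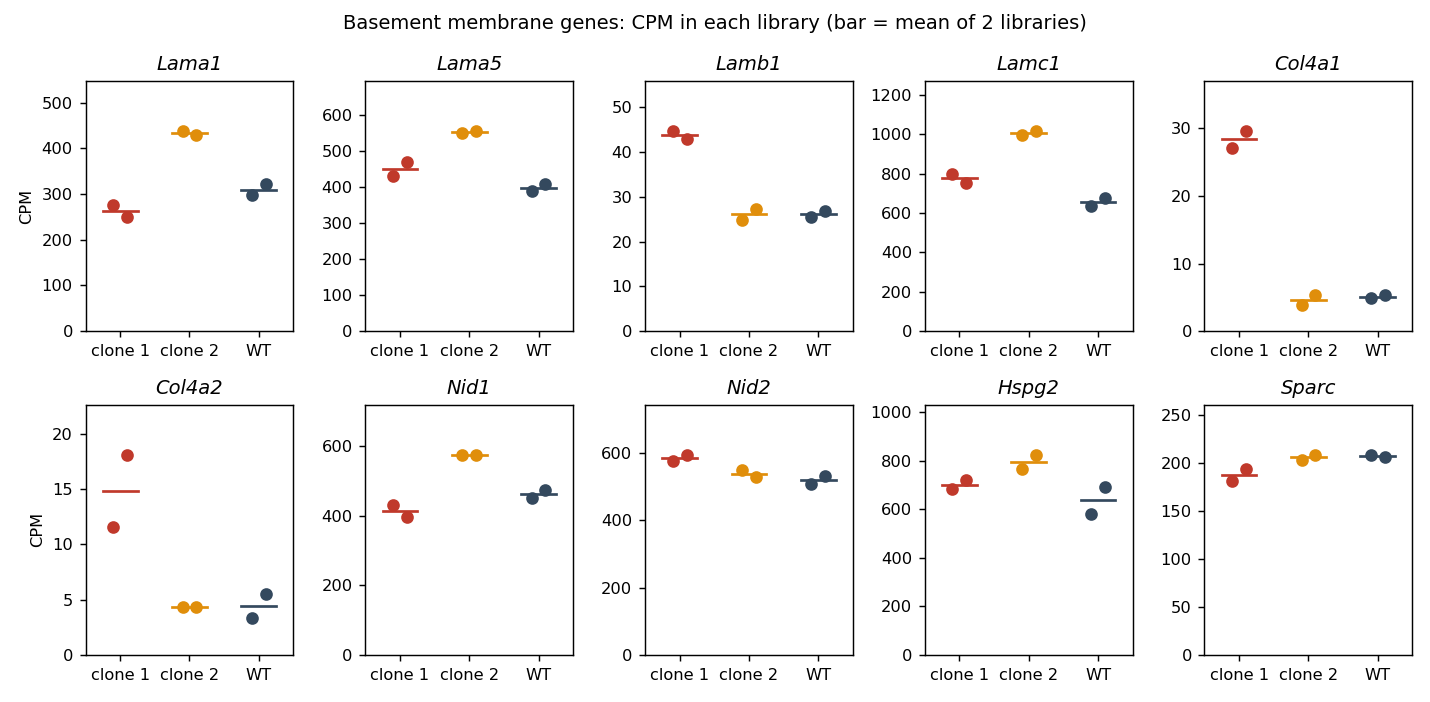
CPM of the 10 genes (vertical axes, from 0, each with its own scale) in the 2 libraries of clone 1, clone 2 and WT (points), with the group mean as a bar. Col4a1, Col4a2 and Lamb1 are high in clone 1 only among these groups, while Lama1, Lama5, Lamc1, Nid1 and Hspg2 are highest in clone 2.

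Of the laminin alpha chains, Lama1 and Lama5 were highest in clone 2. Lama1, the alpha chain of the first laminin of the embryo (chromosome 17, 67697259 to 67822647), had 276 and 249.99 CPM in clone 1 and 438 and 429 CPM in clone 2, against 298 and 321 CPM in WT. The clones lay on opposite sides of WT, with no overlap between any of the groups. In clone 2, Lama1 rose by 0.48 ± 0.08 on the log2 scale against WT (adjusted p = 4.27e-04, edgeR). In clone 1 it fell by 0.24 ± 0.08 (adjusted p = 0.0452), a call that was lost in 8 of 13 alternatives. The adjusted p was 0.0948 when WT replicate 1 was left out and 0.286 for WT replicate 2. It was 0.105 when clone 1 replicate 2 was left out, 0.0843 for the first clone 2 library and 0.0910 for the second. Clone 2 exceeded clone 1 by 0.72 ± 0.08 (adjusted p = 1.49e-05).

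Lama5, the alpha chain of most laminins in later epithelia (chromosome 2, 180176373 to 180225859), had 432 and 469 CPM in clone 1 and 549 and 556 CPM in clone 2, against 388 and 409 CPM in WT. All 4 libraries labelled knockout were above both WT libraries. The rise passed the test in clone 2 (0.47 ± 0.08, adjusted p = 3.61e-04, edgeR). In clone 1 the value was 0.18 ± 0.08 (adjusted p = 0.112). Lama5 was 0.30 ± 0.08 higher in clone 2 than in clone 1 (adjusted p = 0.0152), a call lost without clone 2 replicate 1 (0.136) or clone 2 replicate 2 (0.145).

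Lamb1, a beta chain (chromosome 12, 31265234 to 31329644), followed collagen IV in its order of groups. It had 44.6 and 42.8 CPM in clone 1 and 24.9 and 27.2 CPM in clone 2, against 25.5 and 26.9 CPM in WT. The clone 1 libraries stood apart and the other 4 overlapped. Lamb1 rose 1.67-fold in clone 1 (0.74 ± 0.11, adjusted p = 2.05e-04, edgeR) and was at -0.01 ± 0.12 in clone 2 against WT (adjusted p = 0.974). Clone 2 against clone 1 was at -0.75 ± 0.12 (adjusted p = 3.42e-04).

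Lamc1, the gamma chain of most laminins, without which mouse embryos form no basement membrane (chromosome 1, 153218922 to 153332786), was the member with the most CPM. It had 797 and 753 CPM in clone 1 and 995 and 1016 CPM in clone 2, against 637 and 676 CPM in WT. The 3 groups did not overlap, and clone 2 was the highest. Lamc1 rose by 0.61 ± 0.07 in clone 2 (adjusted p = 1.76e-05, edgeR). In clone 1 it rose by 0.24 ± 0.07 (adjusted p = 0.0270), a call lost when only the 4 libraries compared were used (0.0780). It was also lost when WT replicate 1 (0.227) or 2 (0.0791) was left out, or when clone 2 replicate 1 (0.0804) or 2 (0.0739) was. Clone 2 exceeded clone 1 by 0.37 ± 0.07 (adjusted p = 0.00222).

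Among the linkers, Nid1 and Hspg2 were highest in clone 2. Nid1, nidogen-1, which binds the laminin gamma chain (chromosome 13, 13437551 to 13512269), had 432 and 398 CPM in clone 1 and 574 and 576 CPM in clone 2, against 451 and 474 CPM in WT. Clone 2 was above WT by 0.31 ± 0.08 (adjusted p = 0.00808, edgeR), a call that ended when WT replicate 1 (0.119) or 2 (0.0505) was left out, or clone 2 replicate 1 (0.102) or 2 (0.0882). Both clone 1 libraries were below WT, at -0.16 ± 0.08 (adjusted p = 0.156). Clone 2 exceeded clone 1 by 0.47 ± 0.08 (adjusted p = 4.90e-04).

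Hspg2, the heparan sulfate proteoglycan perlecan (chromosome 4, 137468769 to 137570630), had 683 and 721 CPM in clone 1 and 767 and 825 CPM in clone 2, against 581 and 692 CPM in WT. The WT libraries were the furthest apart, and 1 of them overlapped clone 1. Clone 2 was above WT by 0.32 ± 0.09 (adjusted p = 0.0152, edgeR), a call that ended when WT replicate 1 (0.260) or clone 2 replicate 1 (0.0624) or 2 (0.170) was left out. Clone 1 was at 0.14 ± 0.09 against WT (adjusted p = 0.266), and clone 2 against clone 1 at 0.18 ± 0.09 (adjusted p = 0.184).

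Nid2 and Sparc were called in no comparison of the main fits. In clone 1 against WT, Nid2 was called by edgeR with upper-quartile scaling (adjusted p = 0.0393) and with a replicate block (0.0354). Without clone 1 replicate 1 it was at 0.19 ± 0.07. Nid2, nidogen-2 (chromosome 14, 19751265 to 19811787), had 578 and 595 CPM in clone 1 and 549 and 529 CPM in clone 2, against 508 and 533 CPM in WT, with log2 fold changes of 0.17 ± 0.07 (adjusted p = 0.103, edgeR) for clone 1 and 0.05 ± 0.07 (adjusted p = 0.695) for clone 2. Sparc, a secreted glycoprotein that binds collagen IV (chromosome 11, 55394500 to 55423183), had 181 and 194 CPM in clone 1 and 203 and 209 CPM in clone 2, against 209 and 207 CPM in WT. Its log2 fold changes were -0.14 ± 0.08 (adjusted p = 0.210) in clone 1 and -0.01 ± 0.08 (adjusted p = 0.949) in clone 2. Nid2 shares 437 exon bases with Rtraf on the opposite strand and Nid1 shares 143 with Gm48682, and the strand setting of the counting is not given in the sources used here, so reads there cannot be told apart.

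**Figure D2:**
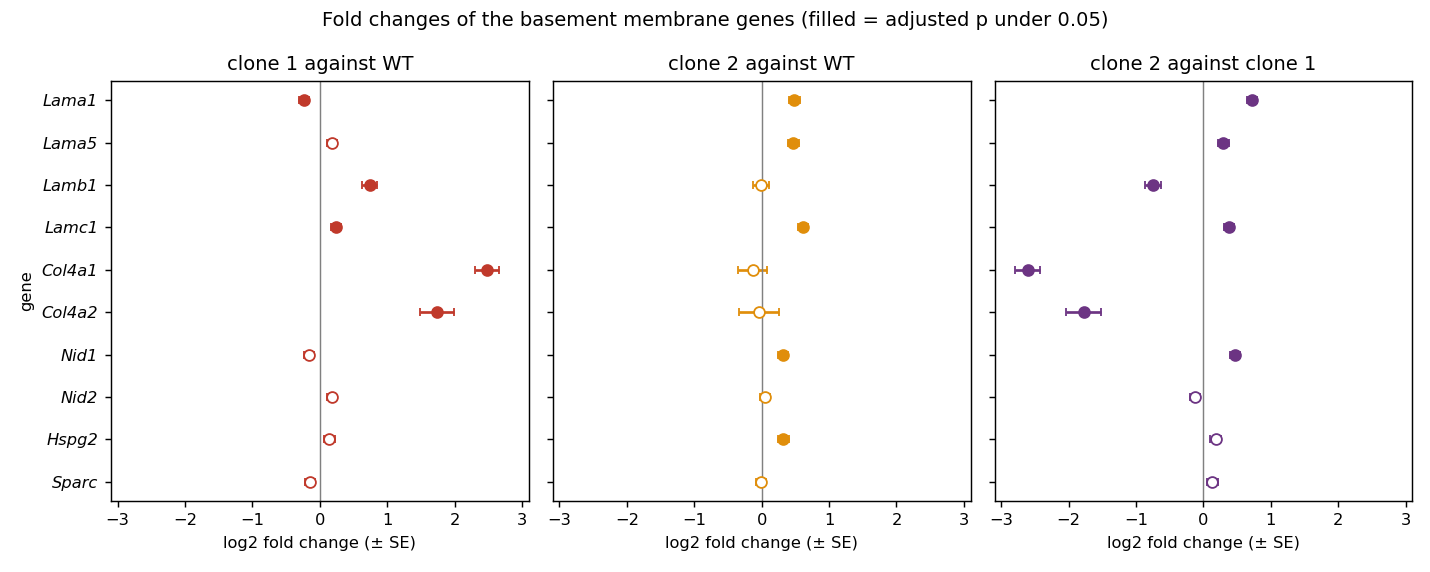
Log2 fold change (horizontal axes, ± SE from edgeR's quasi-likelihood fit) of the 10 genes for clone 1 against WT, clone 2 against WT and clone 2 against clone 1. Filled points passed an adjusted p of 0.05. Col4a1 runs from 2.48 for clone 1 against WT to -2.61 for clone 2 against clone 1, and Lama1 lies below 0 in clone 1 and above 0 in clone 2.

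Counted together, 4 members rose (Lamb1, Lamc1, Col4a1, Col4a2) and 1 fell (Lama1) in clone 1, where 21.9% of all tested genes were called, 12.4% higher and 9.53% lower. In clone 2, 5 rose (Lama1, Lama5, Lamc1, Nid1, Hspg2) and 0 fell, where 17.9% of all tested genes were called, 10.1% higher and 7.81% lower. Clone 2 exceeded clone 1 in 4 members (Lama1, Lama5, Lamc1, Nid1) and was below it in 3 (Lamb1, Col4a1, Col4a2), where 14.3% of all tested genes were called, 6.62% higher and 7.71% lower. The median log2 fold change of the 10 members was 0.17 in clone 1, 0.18 in clone 2 and 0.16 between clones, and that of all tested genes was 0.00 in each. The comparisons of the clones with WT use the same WT libraries. Lamc1 was the 1 member that rose in both clones.

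With the 4 libraries labelled knockout taken as 1 group, 0 of the 10 members passed edgeR's quasi-likelihood test, where 6.36% of all tested genes were called, 4.25% higher and 2.11% lower. At an unadjusted p under 0.05 there were 3 (Lama5, Lamc1 and Hspg2), for which no share over all tested genes is given. DESeq2 called 1 of 10, Lamc1 (adjusted p = 0.0147), which is near the 9.15% of all tested genes that it called. The knockout libraries of Col4a1 averaged 16.5 ± 13.8 CPM (SD, n = 4), against 5.09 ± 0.324 CPM in WT (n = 2), with the clone 1 libraries high and the clone 2 libraries near WT. Its pooled log2 fold change of 1.70 ± 0.78 (adjusted p = 0.228, edgeR) lies between the values of the clones. Lamc1 (0.44 ± 0.13, adjusted p = 0.0759) and Lama5 (0.33 ± 0.11, adjusted p = 0.116) had all 4 knockout libraries above both WT libraries.

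Levels of different genes were compared as CPM per kilobase of annotated exon, with all exons of a gene merged, so a gene with rarely used exons reads low. The laminin gamma and alpha chains, nidogens, perlecan and Sparc were abundant, and Lamb1 and collagen IV were scarce. In WT the order was Nid2 (101 ± 3.38), Lamc1 (79.4 ± 3.35), Nid1 (66.6 ± 2.25), Sparc (54.8 ± 0.391), Hspg2 (44.5 ± 5.51), Lama5 (35.0 ± 1.27), Lama1 (32.0 ± 1.65), Lamb1 (2.64 ± 0.0962), Col4a1 (0.682 ± 0.0434) and Col4a2 (0.669 ± 0.237) CPM per kilobase (SD, n = 2). Of these neighbours, Col4a1 and Col4a2 were the pair whose libraries overlapped. In clone 1 the order was the same, with Sparc and Hspg2 overlapping. In clone 2, Lamc1 (122 ± 1.78) stood above Nid2 (104 ± 2.66), and Hspg2 overlapped Sparc. Col4a1 reached 3.80 ± 0.236 CPM per kilobase in clone 1, close to the 4.41 ± 0.131 of Lamb1 there.

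The beta chains were the scarce part of the laminin trimer in this measure, and Lamb2, a related beta chain, outweighed Lamb1. Summed per kilobase, beta chain mRNA was 21.4 and 22.6 in clone 1 and 20.0 and 19.6 in clone 2, against 15.4 and 15.7 in WT. Lamc1 mRNA per kilobase was 96.4 and 91.1 in clone 1 and 120.2 and 123 in clone 2, against 77.0 and 81.7 in WT. Lamb1 made up 21.02% and 19.1% of the beta chains in clone 1 and 12.6% and 14.03% in clone 2, against 16.7% and 17.2% in WT. The share was highest in clone 1 and lowest in clone 2, with no overlap. Among alpha chains the share of Lama1 was 42.3% and 38.2% in clone 1 and 48.1% and 47.3% in clone 2, against 47.2% and 47.7% in WT.

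**Figure D3:**
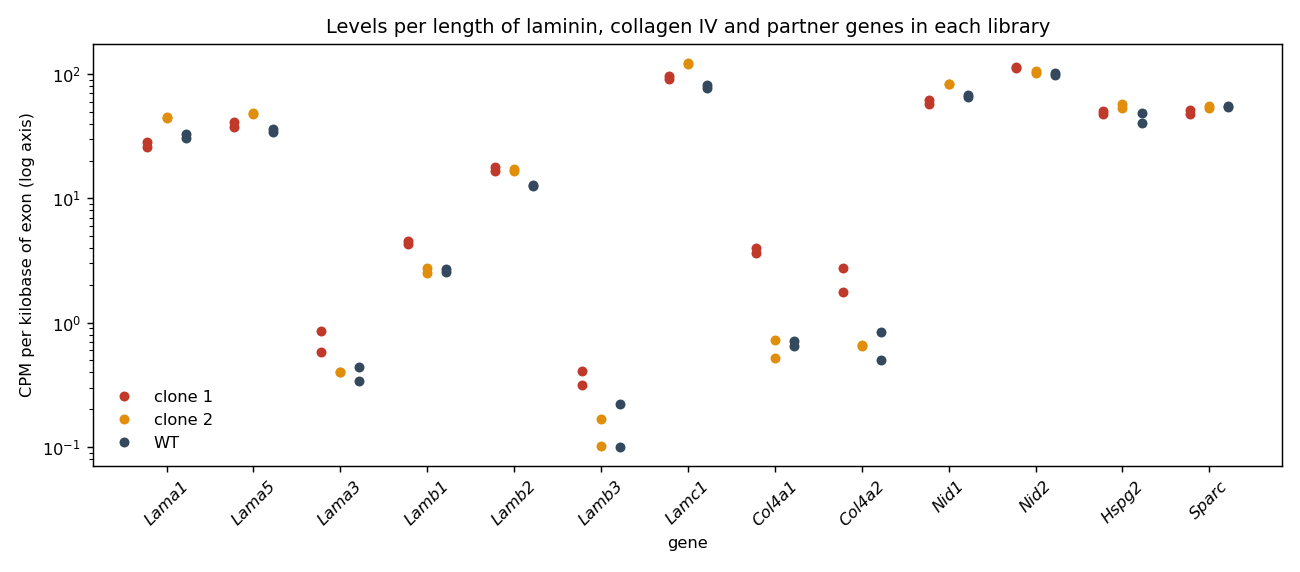
CPM per kilobase of exon (log axis) of the members and of related laminin chains in each library of clone 1, clone 2 and WT. Lamc1 and Nid2 are near the top, Lamb1 and the collagen IV genes lie more than 10 times lower in WT, and Col4a1 of clone 1 stands apart from the other libraries.

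Of the other laminin and collagen IV chains, 4 of 10 listed genes passed the count filter, of which 2 rose in clone 1 (Lama3 and Lamb2) and 1 in clone 2 (Lamb2), with 0 falling in either. The shares called among all tested genes were 12.4% higher and 9.53% lower in clone 1, and 10.1% and 7.81% in clone 2. The median log2 fold change of the 4 tested chains was 1.02 in clone 1 and 0.22 in clone 2, where that of all tested genes was 0.00. Lama3, an alpha chain of epithelial laminin, was at 0.89 ± 0.26 in clone 1 against WT (adjusted p = 0.0196, edgeR), a call lost with DESeq2 (0.0559) and when WT replicate 1 (0.167) or clone 1 replicate 1 (0.179) was left out. Lamb2 had 100.4 and 109 CPM in clone 1 and 106 and 101 CPM in clone 2, against 76.7 and 78.5 CPM in WT. It rose in clone 1 (0.43 ± 0.09, adjusted p = 0.00208) and in clone 2 (0.41 ± 0.09, adjusted p = 0.00363), the second call being lost without WT replicate 1 (0.0611) or clone 2 replicate 1 (0.0817). Col4a3 had 0 counts in all 6 libraries, which allows up to 3 counts, or 0.221 to 0.253 CPM, in each.

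Of 16 other basement membrane components 12 were tested. In clone 1, 7 of the 12 rose, 0 fell and 5 were not called (median 0.69), where 12.4% of all tested genes were called higher and 9.53% lower. In clone 2, 3 rose, 3 fell and 6 were not called (median 0.07), where 10.1% of all tested genes were called higher and 7.81% lower. Npnt, nephronectin, an integrin ligand, had 9.20 and 11.05 CPM in clone 1 and 2.62 and 3.08 CPM in clone 2, against 2.78 and 3.69 CPM in WT. It rose in clone 1 (1.64 ± 0.25, adjusted p = 1.43e-04, edgeR), while clone 2 was at -0.18 ± 0.28 (adjusted p = 0.717), the order of groups seen for collagen IV. Col18a1, a basement membrane collagen, had 175 and 226 CPM in clone 1 and 172 and 172 CPM in clone 2, against 119 and 138 CPM in WT. It rose in clone 1 (0.65 ± 0.11, adjusted p = 3.77e-04, edgeR) and in clone 2 (0.42 ± 0.11, adjusted p = 0.0110). Hmcn2, hemicentin-2, fell in clone 2 (-0.88 ± 0.14, adjusted p = 3.15e-04), with 15.0 and 16.0 CPM in clone 2, against 26.5 and 30.5 CPM in WT. Between clones, 0 of the 12 were higher and 5 lower in clone 2, where 6.62% of all tested genes were called higher and 7.71% lower. Agrn, the heparan sulfate proteoglycan agrin, was among them, with 346 and 355 CPM in clone 2, against 504 and 522 CPM in clone 1 (-0.55 ± 0.08, adjusted p = 1.27e-04).

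Genes that fold, modify and crosslink collagen did not move in 1 direction. Of 16 listed 15 were tested, of which 5 rose and 3 fell in clone 1 and 1 rose and 3 fell in clone 2 (medians 0.09 and 0.04). Among all tested genes, 12.4% were called higher and 9.53% lower in clone 1, and 10.1% and 7.81% in clone 2. Serpinh1, the collagen chaperone HSP47, was lower in both clones, with 55.5 and 64.3 CPM in clone 1 and 60.9 and 65.5 CPM in clone 2, against 106 and 105 CPM in WT. It fell by 0.81 ± 0.10 in clone 1 (adjusted p = 1.65e-05, edgeR) and by 0.74 ± 0.10 in clone 2 (adjusted p = 5.12e-05). Plod2, a lysyl hydroxylase, had 151 and 116 CPM in clone 1 and 82.2 and 93.0 CPM in clone 2, against 71.3 and 67.5 CPM in WT. It rose in clone 1 (0.95 ± 0.11, adjusted p = 1.51e-05, edgeR), and clone 2 was at 0.34 ± 0.11 (adjusted p = 0.0512). Pxdn, peroxidasin, which crosslinks collagen IV, had 7.93 and 7.59 CPM in clone 1 and 1.27 and 2.61 CPM in clone 2, against 2.39 and 2.44 CPM in WT. It rose in clone 1 (1.68 ± 0.29, adjusted p = 5.98e-04), and clone 2 was at -0.31 ± 0.35 (adjusted p = 0.608). P4hb, a subunit of prolyl hydroxylase, rose in clone 2 (0.40 ± 0.07, adjusted p = 9.38e-04), with 635 and 643 CPM in clone 2, against 482 and 485 CPM in WT.

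Of the 13 heparan sulfate synthesis genes, all tested, 3 rose in each clone and 0 fell (medians 0.15 in clone 1 and 0.09 in clone 2). Over all tested genes, 12.4% were called higher and 9.53% lower in clone 1, and 10.1% and 7.81% in clone 2. In both directions together these shares were 21.9% and 17.9%, which the counts of these 13 genes are near. Whether more of them rose than of all genes was not tested. Hs6st1, a sulfotransferase, rose in clone 2 (0.52 ± 0.08, adjusted p = 2.14e-04, edgeR), with 171 and 170 CPM in clone 2, against 117 and 121 CPM in WT.

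Among receptors of laminin and collagen, 10 of 12 listed genes were tested, of which 6 rose and 0 fell in clone 1, and 6 rose and 2 fell in clone 2 (medians 0.48 and 0.35). Over all tested genes, the shares called higher were 12.4% in clone 1 and 10.1% in clone 2, and the shares called lower 9.53% and 7.81%. Bcam, the Lutheran receptor for the laminin alpha-5 chain, had 200 and 238 CPM in clone 1 and 230 and 228 CPM in clone 2, against 100.2 and 117 CPM in WT. It rose in clone 1 (1.01 ± 0.10, adjusted p = 1.58e-06, edgeR) and in clone 2 (1.08 ± 0.10, adjusted p = 8.43e-07). Dag1, dystroglycan, had 270 and 264 CPM in clone 1 and 214 and 209 CPM in clone 2, against 177 and 174 CPM in WT. Clone 1 was above WT by 0.60 ± 0.08 (adjusted p = 2.81e-05, edgeR). Itgb1, the integrin beta-1 subunit, rose in clone 1 (0.75 ± 0.11, adjusted p = 8.77e-05, edgeR). It had 139 and 121 CPM in clone 1 and 107 and 99.8 CPM in clone 2, against 85.6 and 68.5 CPM in WT.

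Of 11 matrix turnover genes 10 were tested: 4 rose and 1 fell in clone 1, and 1 rose and 0 fell in clone 2 (medians 0.97 and 0.10). The shares of all tested genes called higher and lower were 12.4% and 9.53% in clone 1, and 10.1% and 7.81% in clone 2. Mmp2, a protease that cleaves collagen IV, had 12.6 and 10.5 CPM in clone 1 and 2.45 and 3.95 CPM in clone 2, against 2.24 and 1.99 CPM in WT. It rose in clone 1 (2.44 ± 0.27, adjusted p = 6.56e-06, edgeR) and was at 0.60 ± 0.31 in clone 2 (adjusted p = 0.200). Mmp14, a membrane-bound protease, fell in clone 1 by 0.63 ± 0.15 (adjusted p = 0.00608), a call lost without WT replicate 2 (0.0781).

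With both clones pooled, Bcam (1.04 ± 0.10, adjusted p = 8.74e-04) and Serpinh1 (-0.78 ± 0.09, adjusted p = 0.00176) were the pathway genes with the smallest edgeR adjusted p. The call of Serpinh1 was lost without WT replicate 1 (0.0537). Lamb2 (0.42 ± 0.08, adjusted p = 0.0166) was lost without WT replicate 1 (0.226) or WT replicate 2 (0.184). For the rise of Col18a1 in clone 2 the alternatives were not examined. The other calls of pathway genes named above with no loss given were kept in all 13 alternatives.

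**Figure D4:**
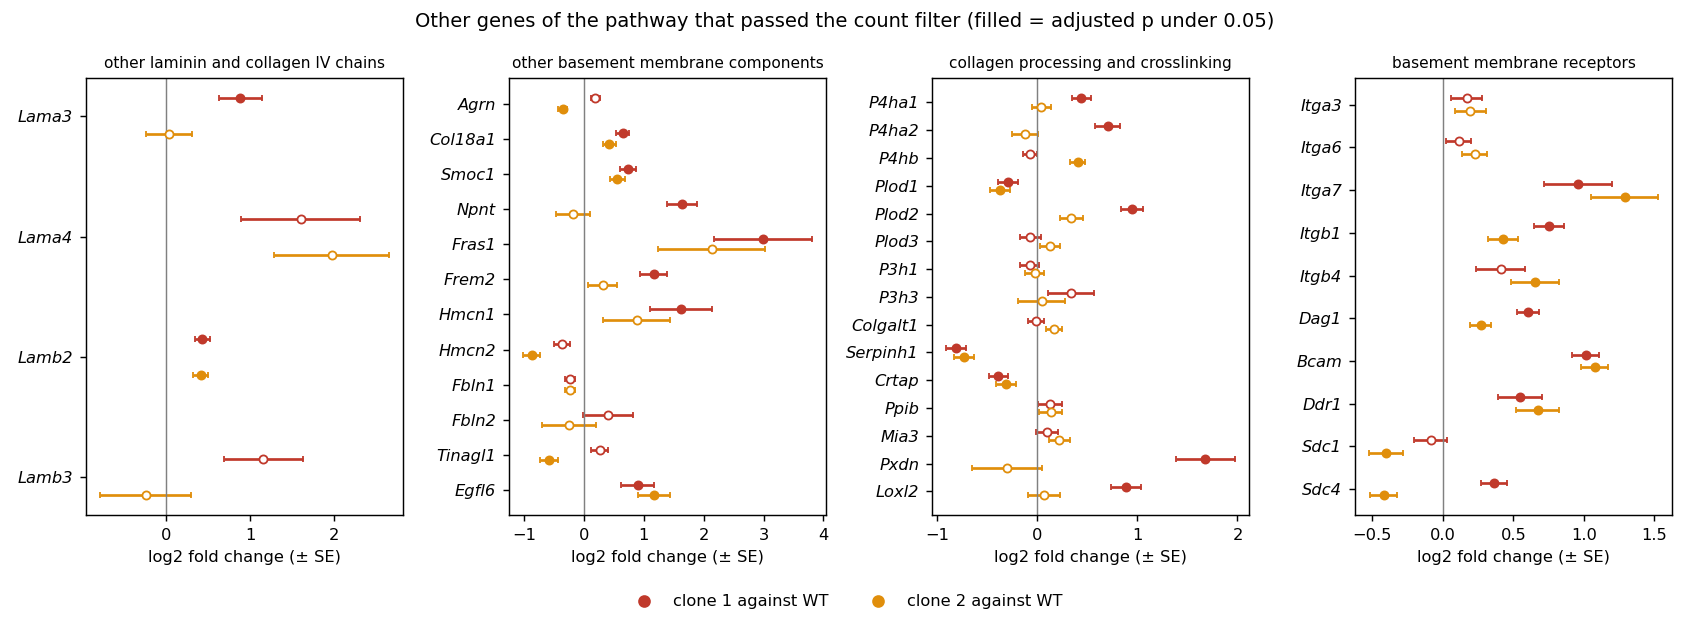
Log2 fold change (± SE) against WT of every tested gene of 4 lists around the members, in clone 1 and in clone 2, with filled points past an adjusted p of 0.05. Serpinh1 is low and Bcam is high in both clones, while Npnt and Pxdn are high in clone 1 and near or below 0 in clone 2.

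Markers of the labelled cell type and of other cells were summed per library. Those of embryonic stem cells summed to 3336 and 3586 CPM in clone 1 and 3626 and 3635 CPM in clone 2, against 3737 and 3942 CPM in WT. Of these 6 genes 0 rose, while Klf4 (-0.41) and Sox2 (-0.32) fell in clone 1 and Sox2 (-0.28) in clone 2 by edgeR. Each of these calls was lost with a WT library left out. Among all tested genes, 9.53% were called lower in clone 1 and 7.81% in clone 2, with 12.4% and 10.1% called higher. Nanog, not called, had 753 and 671 CPM in clone 1, against 621 and 636 CPM in WT. Markers of primitive and parietal endoderm summed to 19.3 and 20.0 CPM in clone 1 and 10.2 and 12.4 CPM in clone 2, against 18.4 and 20.5 CPM in WT. Hnf4a, an endoderm factor that fell in both clones, made up 5.55 and 5.14 CPM of this sum in clone 1 and 1.77 and 1.74 CPM in clone 2, against 10.96 and 11.97 CPM in WT. Without it, a choice made after its values were seen, the sum was 13.8 and 14.9 CPM in clone 1 and 8.44 and 10.7 CPM in clone 2, against 7.41 and 8.57 CPM in WT. The clone 1 libraries were then the highest and clone 2 overlapped WT. Over the full list, clone 1 overlapped WT and clone 2 was the lowest. The part of these markers in the result was not tested. Of the 15 listed genes, 1 and 2 had 0 counts in the clone 1 libraries and 4 and 3 in the clone 2 libraries, against 5 and 2 in the WT libraries. Among the defining genes, Gata6 had at most 1.38 CPM, Sox17 at most 0.55 CPM and Sox7 at most 0.08 CPM in any library. Pdgfra had 4.12 and 2.61 CPM in clone 1 and 0.676 and 3.08 CPM in clone 2, against 1.003 and 1.70 CPM in WT, with an edgeR adjusted p of 0.0762 for clone 1 and 0.599 for clone 2. Dab2 had 0.634 and 0.767 CPM in clone 1 and 0.844 and 1.27 CPM in clone 2, against 0.154 and 0.148 CPM in WT. Of these genes 8 were tested, with median log2 fold changes of 0.84 in clone 1 and 0.10 in clone 2. In clone 1 Gata4 and Srgn rose and Hnf4a fell, and in clone 2 Dab2 rose and Hnf4a fell. In either direction, 21.9% of all tested genes were called in clone 1 and 17.9% in clone 2. The call of Dab2 (adjusted p = 0.0158, edgeR) was lost with DESeq2 (0.0698) and when any WT or clone 2 library was left out (0.0577 to 0.178). Gata4 had 2.62 and 2.91 CPM in clone 1, against 0.849 and 1.182 CPM in WT (adjusted p = 0.0159, edgeR), and lost the call with DESeq2 (0.0541) and without WT replicate 1 (0.127) or WT replicate 2 (0.0531). Srgn lost it with DESeq2 (0.0993) and without WT replicate 1 (0.162), WT replicate 2 (0.108) or clone 1 replicate 1 (0.126). Trophoblast markers summed to 139 to 163 CPM in clone 1 and 141 to 146 CPM in clone 2, against 191 to 199 CPM in WT. Of 10 trophoblast genes 8 were tested. In clone 1, 2 rose and 3 fell, and in clone 2, 0 rose and 3 fell. Of all tested genes, 12.4% were called higher and 9.53% lower in clone 1, and 10.1% and 7.81% in clone 2. Cdx2 had 2.30 and 1.46 CPM in clone 1 and 6.33 and 3.48 CPM in clone 2, against 28.9 and 22.3 CPM in WT. Gata2 and Tead4 also fell in both clones, the Tead4 calls being lost with some libraries left out, and Eomes rose in clone 1. Fibroblast markers summed to 7.67 to 9.36 CPM in clone 1 and 2.96 to 3.95 CPM in clone 2, against 3.09 to 4.65 CPM in WT, which is the order of groups of collagen IV, and their part in the result was not tested. Of 9 fibroblast genes 3 were tested, of which 2 rose in clone 1 (Col1a2 and Thy1, median 0.94) and 1 in clone 2 (Col1a2, median -0.21). Col1a2, a fibrillar collagen chain, had 22 and 15 counts in clone 1 and 11 and 18 counts in clone 2, against 0 and 1 in WT. Its edgeR call was kept in all 13 alternatives in clone 1 (adjusted p = 9.69e-04), and in clone 2 (adjusted p = 0.00250) it was lost without WT replicate 1 (0.0536). Thy1 had 5.79 and 5.06 CPM in clone 1 and 1.35 and 1.58 CPM in clone 2, against 2.24 and 3.40 CPM in WT. Its call in clone 1 (0.94 ± 0.30, adjusted p = 0.0311) was lost with DESeq2 (0.110) and when WT replicate 1 (0.235) or clone 1 replicate 1 (0.109) was left out. Postn, Lum, Dcn, S100a4 and Twist2 had 0 counts in all 6 libraries, which allows up to 3 counts in each. In these bulk libraries more cells of a type and more RNA per cell cannot be told apart.

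Among genes beside the members, the median log2 fold change of the 20 nearest tested genes, 10 on each side, was 0.04 in clone 1 and -0.02 in clone 2 around Col4a1 and Col4a2, and 0.04 in clone 1 and -0.04 in clone 2 around Lamb1. Around Lama1 it was -0.03 in clone 1 and 0.10 in clone 2. Around Lama5 it was -0.21 in clone 1 and -0.12 in clone 2. Of these 20 genes, 5 were called lower, 1 higher and 14 not in clone 1, and 4 lower, 1 higher and 15 not in clone 2, where 9.53% and 7.81% of all tested genes were called lower.

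The average pattern of the members, the mean of their centred log2 CPM, was matched most closely by Arhgef15 (r = 0.992), Zfp146 (0.991), Nek6 (0.991), Prag1 (0.991) and Cavin1 (0.990) among 8830 genes. These are Pearson correlations over 6 libraries that fall into 3 groups, ranked from many genes, and they are given as a description. Cavin1, a coat protein of caveolae, had 70.6 and 79.1 CPM in clone 1 and 53.1 and 58.4 CPM in clone 2, against 38.4 and 43.4 CPM in WT. The average is set mainly by Col4a1 and Col4a2, whose range over libraries is widest.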

How the data were processed

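The values are whole-number counts per gene, deposited by the authors as 1 table per library. Per the submitters' processing notes HISAT2 2.1.0, HTSeq 0.9.1 and DESeq2 1.18.1 were used with mm10; the annotation and strand setting were not given in any source used here. Rows that name no gene were left out (no feature 4.14 to 5.35%, ambiguous 6.96 to 9.10%). Depth was 11976149 to 13923262 counts, which limits precision for genes of few counts.

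Genes were filtered with edgeR 4.0.16 (R 4.3.3, filterByExpr), scaled by TMM and tested with its two-sided quasi-likelihood test, with Benjamini-Hochberg adjustment over 14946 genes and a threshold of 0.05. Clone contrasts came from 1 fit of 3 groups, and the knockout comparison from a fit of 2. The fits were tested on simulated data. CPM use TMM-scaled totals, and exon lengths and positions come from GENCODE M21. Alternatives were DESeq2 1.42.0, other scalings, filters and groupings, and each library left out; for genes of the other lists these were chosen after seeing the data.

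The members and lists were chosen with earlier results of these data known. Of each other list, up to 4 called genes a comparison with the smallest p could be named; likeness used genes of mean CPM of 10 or more, and neighbours genes of 5 or more. Another 6 libraries, of a time course, are not analysed here. A further gene of the lists is not reported here.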

Additional observations from a re-analysis of the deposited data

Results flagged for a closer look

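The change against WT differed between the clones for 7 of the 10 genes, by the direct edgeR comparison of clone 2 with clone 1. In that comparison 14.3% of all tested genes were called, 6.62% higher and 7.71% lower. The log2 differences were 0.72 for Lama1, 0.30 for Lama5, 0.37 for Lamc1 and 0.47 for Nid1, which were higher in clone 2 than in clone 1. They were -0.75 for Lamb1, -2.61 for Col4a1 and -1.78 for Col4a2, which were lower in clone 2 than in clone 1. Of these, 6 kept the call in every alternative run, and Lama5 did not. Each clone is a single line, so a trait of the clone and the knockout cannot be told apart.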

How the results depend on the processing

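Of the called members, 3 of 5 in clone 1 against WT (Lamb1, Col4a1, Col4a2), 3 of 5 in clone 2 against WT (Lama1, Lama5, Lamc1) and 6 of 7 between clones kept their call in all 13 alternatives. For both clones pooled, the members called were 1 with DESeq2, 1 with upper-quartile scaling, 4 with no count filter, 6 as the mean of the clone contrasts and 0 to 1 with a library left out. Genes called there were 951, against 1752 with no filter, 3226 as the mean of the clone contrasts and 79 to 948 with a library left out, the lowest being without WT replicate 1 (79) and WT replicate 2 (99). With only the 4 libraries compared, 3 members were called in clone 1, and 4065 genes, against 2674, in clone 2. With a library left out, members called were 3 to 8 in clone 1, 3 to 5 in clone 2 and 6 to 8 between clones. Genes called were 1576 to 4310, 1165 to 4191 and 974 to 3155 in these comparisons. Upper-quartile scaling gave 2126 higher and 1043 lower genes in clone 1, against 1856 and 1424, and 6 members higher and 0 lower. With a library left out, uncalled log2 fold changes in clone 2 against WT changed sign, ranging over -0.072 to 0.045 for Lamb1, -0.388 to 0.070 for Col4a1, -0.355 to 0.38 for Col4a2 and -0.029 to 7.08e-04 for Sparc. Where fewer libraries were used, the lone library of a group was assumed to vary like the others, and otherwise the cause was not tested.

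Same-numbered libraries deviated from their group means with correlations of 0.05, -0.01 and 0.13. Such values cannot show whether the numbers pair the samples, and the main fits used no block. With the replicate block the members called were 0 pooled, 7 in clone 1 (adding Lama5 and Nid2, both 0.0354), 5 in clone 2 and 8 between clones (adding Hspg2, 0.0389). The genes called were 646, 4410, 3685 and 3007, against 951, 3280, 2674 and 2141 without it.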
